A study of Mus musculus with 10 samples.

Results

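Complement is a cascade of serum proteins that tags microbes and damaged cells and can punch pores into their membranes. The classical, lectin and alternative routes meet at the cleavage of C3, and the terminal components then assemble the membrane attack complex. Hepatocytes make most of these proteins, so liver messenger RNA is the main source of the circulating cascade, while soluble and membrane-bound regulators keep it off the body's own cells.

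The transcripts described here are 34 named complement genes, made up of components of all routes, recognition lectins, regulators and receptors, with the C1q chains kept apart because macrophages make them. All 34 were found by symbol among the 47702 genes of the deposited table, and 33 had a mean of at least 0.5 FPKM (fragments scaled for transcript length and library size) over all libraries and were tested. The compared groups were livers of female mice with a full-body Etnppl knockout (KO) and livers of wild-type (WT) female mice. Both groups ate chow for 20 weeks, and each had 5 libraries of poly-A RNA. Etnppl encodes ethanolamine-phosphate phospho-lyase. Neither the age of the animals nor the knocked-out exons were given in the sources used here. The labels do not state that each library is a separate animal, and p-values therefore speak of the scatter among these libraries, which may be technical.

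Etnppl itself had 26.43, 21.97, 18.88, 25.74 and 17.72 FPKM in KO 1 to KO 5, against 60.27, 69.73, 108.39, 47.24 and 43.32 FPKM in WT 1 to WT 5. Every KO library lay below every WT library, with a KO mean at 33.7% of the WT mean (exact permutation test, two-sided, p = 0.0079, the smallest that the arrangements allow). Of 9 hepatocyte markers found and tested, limma called 2 higher and none lower. In either direction 4 had an unadjusted p under 0.05, and 3 had a negative difference (median 0.09). Their summed level, set mostly by the most abundant markers, was 68530 to 76850 FPKM in KO livers and 63760 to 69230 FPKM in WT livers. The depth of the libraries relative to each other, estimated from low genes, ran from 0.906 to 1.07 in KO libraries and from 1.0 to 1.11 in WT libraries.

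The promoters below belong to Hc, Mbl2 and C3, the 3 transcripts with the smallest p among those that fell and have an entry in the RefSeq promoter table (GRCm38.p6, 250 bases before to 50 bases from the start site). Cfi, which also fell and had a smaller p than Mbl2 and C3, has no entry there. Searches on both strands used 3 short motifs, TTCNNNGAA (STAT), TTGCNNAA (C/EBP) and GTTAAT (part of the HNF1 site), and capitals mark a match. The Hc promoter (chr2:35061363-35061662, minus strand) held 1 HNF1 motif, on the strand opposite to the gene. The C3 promoter (chr17:57228087-57228386, minus strand) held 1 C/EBP match, and the Mbl2 promoter (chr19:30232678-30232977, plus strand) held none of the motifs.
Hc: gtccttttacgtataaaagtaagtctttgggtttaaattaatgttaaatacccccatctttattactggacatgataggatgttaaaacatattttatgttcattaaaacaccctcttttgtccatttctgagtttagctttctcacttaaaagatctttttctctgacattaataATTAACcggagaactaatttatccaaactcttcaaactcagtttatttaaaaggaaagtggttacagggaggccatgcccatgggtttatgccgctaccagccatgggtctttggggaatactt
Mbl2: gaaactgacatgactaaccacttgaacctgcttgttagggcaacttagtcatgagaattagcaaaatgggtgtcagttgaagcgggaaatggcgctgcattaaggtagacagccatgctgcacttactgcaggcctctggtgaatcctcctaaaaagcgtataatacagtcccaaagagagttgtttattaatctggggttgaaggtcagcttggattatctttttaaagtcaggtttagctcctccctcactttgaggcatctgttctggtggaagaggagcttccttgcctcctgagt
C3: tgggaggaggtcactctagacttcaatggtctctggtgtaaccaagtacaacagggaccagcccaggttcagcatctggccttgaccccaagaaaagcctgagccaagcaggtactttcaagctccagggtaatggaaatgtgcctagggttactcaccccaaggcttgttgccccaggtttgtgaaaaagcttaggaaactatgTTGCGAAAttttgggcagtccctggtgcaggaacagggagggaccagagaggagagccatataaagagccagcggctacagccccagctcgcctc
Across the 25 complement genes with an entry, which have 27 promoters, the HNF1 motif was present in 9 promoters (33.3%), against 7.1% of all 32851 promoters. The STAT motif was present in 6 (22.2%), against 8.3% of all promoters, and the C/EBP motif in 4 (14.8%), against 10.8%. The 5 genes with an entry that fell in KO livers had 6 promoters, of which 2 held the HNF1 motif, 2 the C/EBP motif and 0 the STAT motif. These are matches of letters, not measured binding sites. Promoters of other genes expressed in liver were not counted apart, so it was not tested whether these shares are particular to complement.

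In all, 7 complement transcripts fell in KO livers and none rose. Without KO 2 only 4 were called lower (Hc, Mbl2, C3 and Cfi), and without KO 4 there were 5 lower and 1 higher (C6). The 7 were Hc, which encodes C5, Mbl2, C3, Cfi, Cfp, C1s1 and Cfb, a set that spans recognition, proteolysis, amplification, the terminal route and regulation. Hc and Mbl2 fell the most, with KO means at 59.4% and 59.9% of the WT means. The 7 of 33 transcripts called lower at a limma adjusted p under 0.05 are 21.2%, against 4.56% of the 12247 genes tested, while 3.98% of all tested genes were called higher and 8.54% were called in either direction. Abundant genes were called more often. Above a mean level of 50 FPKM, 6 of 18 complement transcripts (33.3%) were called lower, against 9.71% of all 1360 genes at that level. The median log2 difference of the complement transcripts was -0.13 and that of all tested genes was -0.02, and 23 of the 33 had a negative difference, against 54.3% of all tested genes. At an unadjusted p under 0.05 there were 13 of 33 lower and 1 higher, against 1664 lower (13.6%) and 1342 higher among all 12247 tested genes. Every KO library lay below every WT library for 5 complement transcripts (4.78% of all tested genes) and above for none (4.08% of all tested genes). The members were chosen with earlier results of these data known, and the part of that choice in these shares was not tested. By role, 1 of 5 lectins, 1 of 4 proteases, 3 of 7 genes of C2, C3, C4 and the alternative route, 1 of 6 terminal components, 1 of 6 soluble regulators, 0 of 3 tested membrane regulators and 0 of 2 receptors were called lower. In mm10 the genes called lower lie on 6 chromosomes, with Hc at chr2:34983331-35061438, Mbl2 at chr19:30232942-30239687, C3 at chr17:57203970-57228136, Cfb at chr17:34856374-34862518, C1s1 at chr6:124530345-124542359 and Cfp at chrX:20925454-20931555, and the position of Cfi is given with its values.

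**Figure D1:**
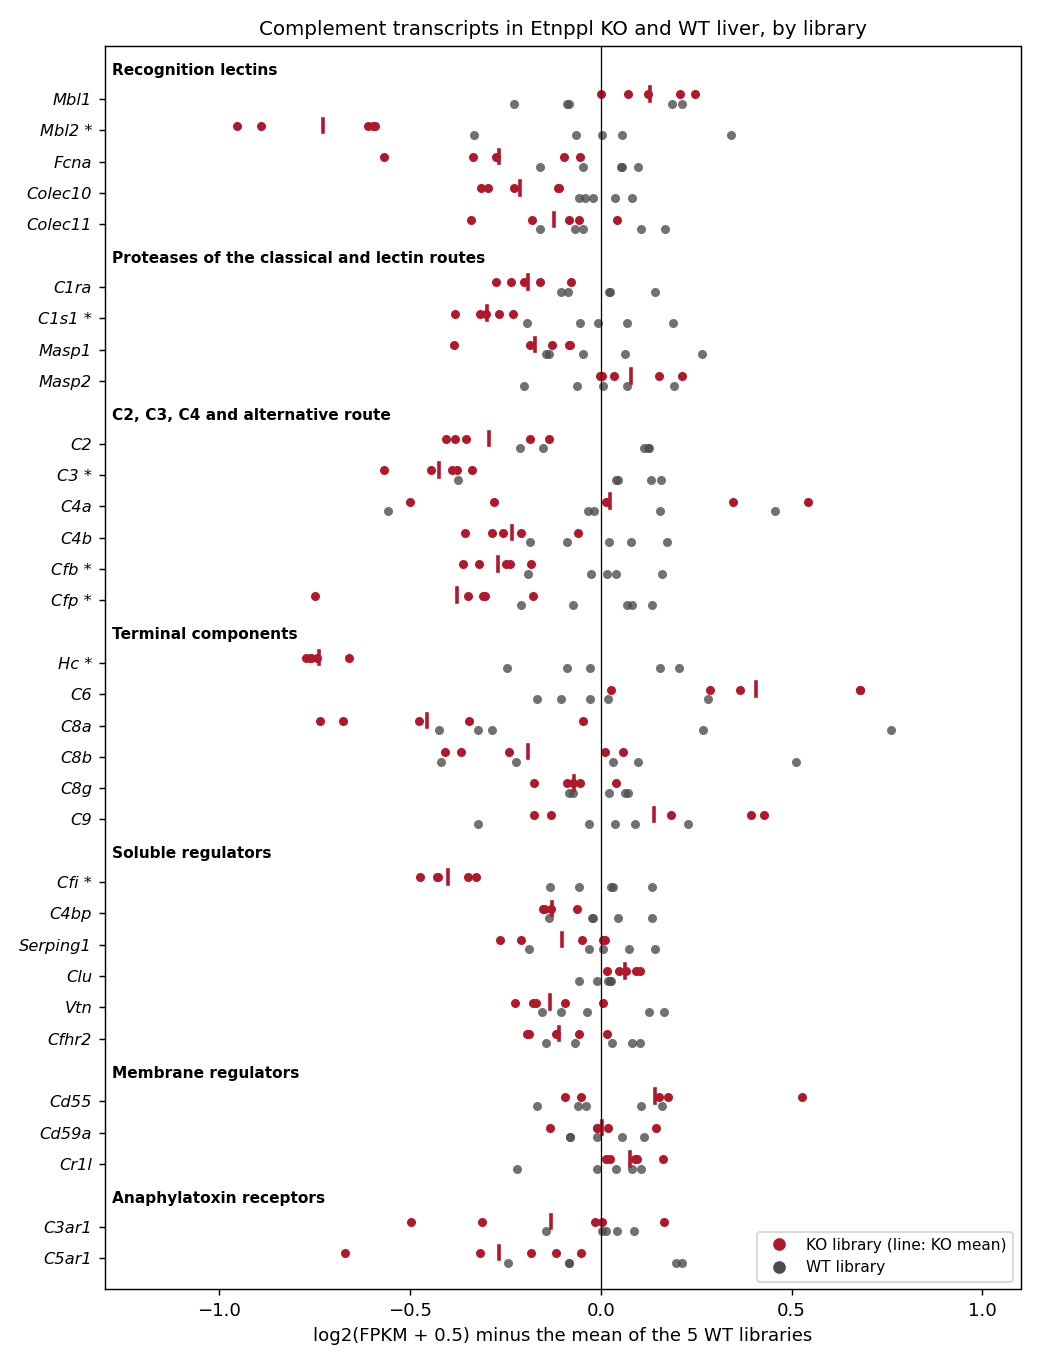
Each point is 1 library, placed by its log2(FPKM + 0.5) minus the mean of the WT libraries, for 32 of the 33 tested complement transcripts grouped by role (Cfd, which is near 0, has too wide a spread for this scale). KO libraries are red with a line at their mean, WT libraries are grey, and asterisks mark the 7 transcripts called lower; the red points of Hc and Mbl2 sit farthest to the left.

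The lectins recognise sugars on microbes and start the lectin route. Mbl2, which encodes mannose-binding lectin C, had 137.04, 111.28, 136.63, 135.46 and 106.69 FPKM in KO 1 to KO 5, against 262.03, 207.25, 164.27, 197.71 and 214.98 FPKM in WT 1 to WT 5. The groups did not overlap, and the lowest WT library was WT 3. KO minus WT came to -0.73 on the log2 scale (SE 0.12, limma adjusted p = 0.0049), and without WT 3 it was -0.81. Mbl1, which encodes mannose-binding lectin A, was not called, at 111.2 ± 7.67 FPKM in KO livers and 102.1 ± 13.7 FPKM in WT livers (SD, n = 5 each), a log2 difference of 0.13 with a 95% interval from -0.06 to 0.32. The difference between the 2 lectins was not tested.

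Colec10, which encodes collectin liver 1, had 7.71, 7.07, 6.72, 7.70 and 6.62 FPKM in KO 1 to KO 5, against 8.10, 8.23, 8.59, 8.01 and 8.88 FPKM in WT 1 to WT 5. Its groups did not overlap either, but the change was small and missed the threshold (log2 difference -0.21, limma adjusted p = 0.069). Colec11, which encodes collectin kidney 1, had a log2 difference of -0.12 (limma adjusted p = 0.40). Fcna, which encodes ficolin A and is known in mice from macrophages, averaged 26.68 ± 3.77 FPKM in KO livers and 31.98 ± 2.27 FPKM in WT livers, a log2 difference of -0.27 that did not pass (limma adjusted p = 0.10). Beside Colec10, a transcript known from stellate cells, the stellate cell marker Reln fell by 0.26 on the log2 scale (limma adjusted p = 0.047). Most other markers of the stellate cell list were not called, and some of these did not fall. The part of stellate cells in the Colec10 values was not tested.

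The serine proteases act directly downstream of recognition. C1s1, which encodes the C1s protease that cleaves C4 and C2, had 108.78, 100.46, 106.34, 105.09 and 111.72 FPKM in KO 1 to KO 5, against 126.12, 137.45, 130.33, 114.46 and 149.43 FPKM in WT 1 to WT 5. No KO library reached the lowest WT library, WT 4, with a log2 difference of -0.30 with a standard error of 0.07 (limma adjusted p = 0.021). Without KO 2 the call was lost (limma adjusted p = 0.0548). Its neighbour C1ra on chromosome 6, which encodes the C1r protease that activates C1s, averaged 47.68 ± 2.56 FPKM in KO livers and 54.49 ± 3.84 FPKM in WT livers. That log2 difference of -0.19 did not pass (limma adjusted p = 0.072). C1s1 is 96.2% identical to C1s2 and C1ra 98.1% identical to C1rb over their aligned transcripts, so reads can be split between the copies. C1s2 stood between 0 and 0.05 FPKM in all libraries, while C1rb had a mean difference of -0.18.

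The lectin-route proteases were not called. Masp1, whose locus encodes MASP-1 and MASP-3, averaged 24.11 ± 2.06 FPKM in KO livers and 27.31 ± 3.41 FPKM in WT livers (log2 difference -0.17, limma adjusted p = 0.25). Masp2, which encodes the protease that cleaves C4 and C2 in the lectin route, averaged 162.2 ± 11.04 FPKM in KO livers and 153.7 ± 15.6 FPKM in WT livers (log2 difference 0.08, 95% interval -0.08 to 0.24). Exons of Tardbp on the opposite strand cover 54.9% of the Masp2 exon bases, so its level is uncertain where strand was not used in counting.

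C3 is the point where all routes meet, and it was the most abundant of the complement transcripts. It had 1819.89, 1768.78, 1549.62, 1752.13 and 1686.71 FPKM in KO 1 to KO 5, against 2518.83, 2370.21, 1773.76, 2561.85 and 2361.62 FPKM in WT 1 to WT 5. Only WT 3 lay within the range of the KO libraries, and the others were well above it. On the log2 scale KO minus WT was -0.42 (SE 0.09, limma adjusted p = 0.020), and without WT 3 it was -0.52. C3 made up 23.3% to 26.9% of the summed complement FPKM in KO livers and 25.8% to 31.9% in WT livers.

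The alternative route amplifies C3 cleavage, and Cfb and Cfp, which drive it, were both called lower. Cfb, which encodes factor B, the protease subunit of the alternative convertase, had 489.88, 471.35, 468.30, 432.75 and 445.58 FPKM in KO 1 to KO 5, against 572.17, 562.12, 487.36, 546.72 and 621.43 FPKM in WT 1 to WT 5. KO 1 exceeded WT 3 by a small margin and no other pair crossed. This is a log2 difference of -0.27 with a standard error of 0.06 (limma adjusted p = 0.027). The call was lost without WT 1, WT 2, WT 5, KO 2, KO 4 or KO 5, with limma adjusted p-values from 0.0509 to 0.0661. Annotated exons of the read-through gene Gm20547 cover 79.5% of the Cfb exon bases and 42.8% of those of C2, and Gm20547 is listed at 0 in both genotypes.

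Cfp, which encodes properdin, the stabiliser of the alternative convertase, had 22.29, 21.67, 24.48, 22.39 and 16.31 FPKM in KO 1 to KO 5, against 29.10, 30.50, 29.38, 26.33 and 23.92 FPKM in WT 1 to WT 5. The groups touched only through KO 3 and WT 5, and KO 5 was the lowest library. This is a log2 difference of -0.38 with a standard error of 0.10 (limma adjusted p = 0.045). The call held without WT 5 or KO 3 and was lost without any other single library, with limma adjusted p-values from 0.0622 to 0.0909, and it was also lost with no filter on low values (limma adjusted p = 0.0882), upper-quartile scaling (0.0528) and quantile normalization (0.0515). Properdin is known from myeloid cells. Of 11 Kupffer cell markers, 4 were called lower (Clec4f, Vsig4, Csf1r and Folr2) and none higher. In either direction 7 had an unadjusted p under 0.05, and 10 of the 11 had a negative difference. The summed level of these markers was 161.9 to 202.9 FPKM in KO livers and 214.0 to 246.3 FPKM in WT livers, with none at 0 throughout. Their part in the values of Cfp and Fcna was not tested, and in bulk liver fewer cells of a type and less RNA per cell cannot be told apart. Of 8 neutrophil markers, 4 were too low to test and limma called 0 of the other 4 and none had an unadjusted p under 0.05, with summed levels of 4.57 to 9.14 FPKM in KO livers and 5.16 to 10.84 FPKM in WT livers.

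The C2 and C4 genes lie beside Cfb on chromosome 17 and none of them was called. C2, the protease subunit of the classical convertase, averaged 20.78 ± 1.84 FPKM in KO livers and 25.62 ± 2.95 FPKM in WT livers (log2 difference -0.29, limma adjusted p = 0.059), and it was called without WT 4 (limma adjusted p = 0.0353) and among genes averaging 5 FPKM or more (0.0463). C4b, the main C4 gene, had 198.82, 220.65, 192.54, 179.66 and 188.46 FPKM in KO 1 to KO 5, against 202.11, 259.41, 216.33, 233.28 and 243.00 FPKM in WT 1 to WT 5. Only KO 2 lay inside the WT range, and the log2 difference of -0.23 did not pass (limma adjusted p = 0.079). C4a, which in mice encodes the sex-limited protein, had 7.18, 6.21, 3.84, 3.23 and 4.82 FPKM in KO 1 to KO 5, against 4.65, 6.73, 5.37, 4.71 and 3.08 FPKM in WT 1 to WT 5. Its libraries were fully mixed between genotypes (log2 difference 0.02, 95% interval -0.46 to 0.51). The C4a and C4b transcripts are 96.2% identical over 5366 aligned bases, so the small C4a level could hold reads of C4b.

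Cfd, which encodes adipsin, the factor D protease known from fat cells, was near the floor. It was listed at 0.07, 0.82, 0.95, 0.07 and 2.33 FPKM in KO 1 to KO 5, against 0.66, 0.06, 0, 1.58 and 0.65 FPKM in WT 1 to WT 5. The spread within each genotype was as wide as the mean, with a coefficient of variation of 109% in KO livers and 108% in WT livers. The fat cell marker Adipoq was highest in KO 5 (0.36 FPKM) among KO libraries and was listed at 0 in WT 2 and WT 3, where Cfd was also lowest. Other markers of the fat cell list did not all share this pattern, and the part of fat cells in the Cfd values was not tested. All 5 fat cell markers were too low to test, with a summed level of 0.09 to 1.01 FPKM in KO livers and 0 to 0.38 FPKM in WT livers.

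**Figure D2:**
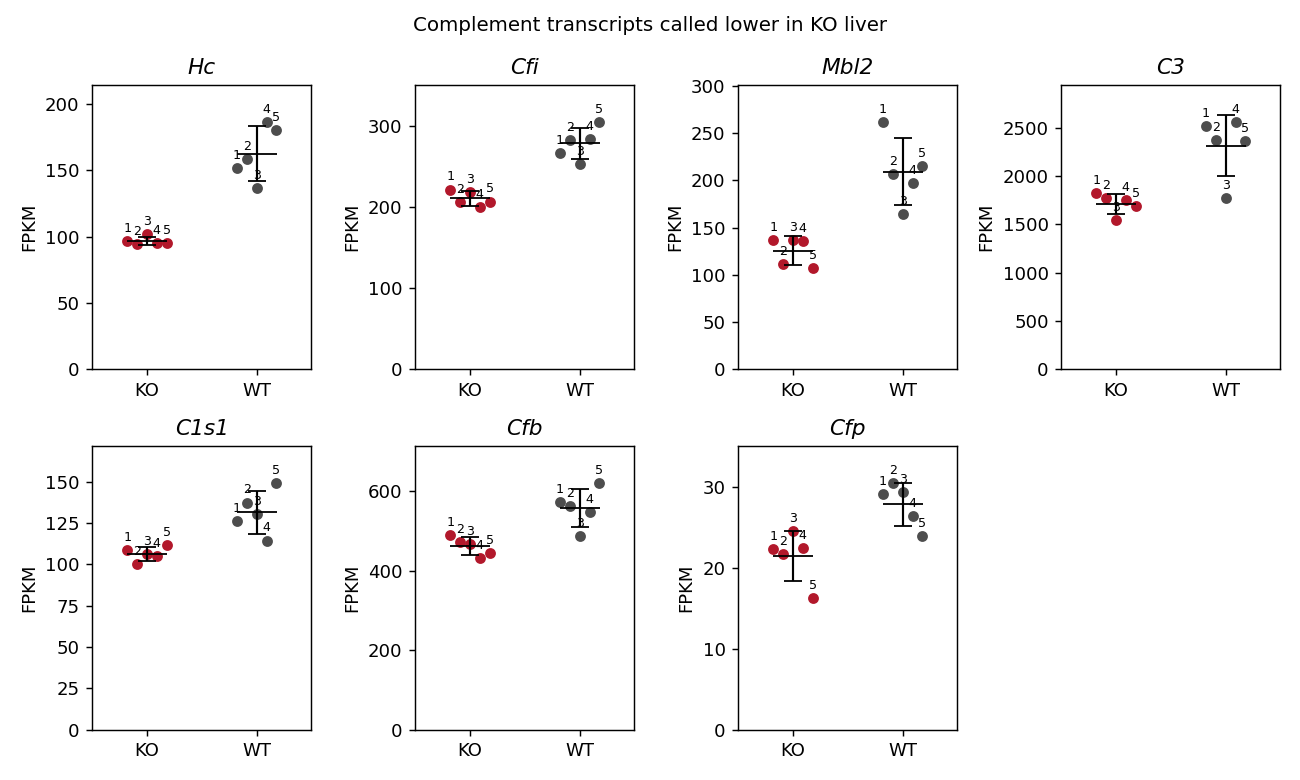
FPKM of the 7 complement transcripts called lower, with KO libraries (red) left of WT libraries (grey), numbered by replicate; bars give the mean ± SD of 5 libraries and axes start at 0. KO and WT points are fully apart for Hc, Cfi, Mbl2 and C1s1, and WT 3 is the lowest WT library for Hc, Cfi, Mbl2, C3 and Cfb.

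Hc had the smallest p of all complement transcripts. Hc encodes C5, whose cleavage releases the C5a anaphylatoxin and starts the terminal complex. Its level was 96.33, 94.41, 102.23, 95.11 and 95.33 FPKM in KO 1 to KO 5, against 151.96, 158.62, 136.38, 186.61 and 180.17 FPKM in WT 1 to WT 5. The KO libraries lay close together, with a coefficient of variation of 3.29%, and the WT libraries varied more, at 12.7%. This is a log2 difference of -0.74 with a standard error of 0.08 (limma adjusted p = 0.00064), and it ranged from -0.80 to -0.69 over all alternatives tried.

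None of the other terminal components was called, and whether they differ from Hc was not tested. C6, which joins the complex after C5, stood higher in most KO libraries, with 17.50, 13.21, 13.97, 10.96 and 17.50 FPKM in KO 1 to KO 5, against 9.51, 10.89, 10.52, 9.96 and 13.17 FPKM in WT 1 to WT 5. Of the KO libraries, 4 lay above every WT library and KO 4 lay inside their range. The log2 difference of 0.41 did not pass (SE 0.13, limma adjusted p = 0.074), but it did without KO 4 (0.50, limma adjusted p = 0.0346). C9, the pore-forming subunit, averaged 89.01 ± 17.3 FPKM in KO livers and 80.12 ± 10.9 FPKM in WT livers (log2 difference 0.14, limma adjusted p = 0.57). As background, serum activity of the terminal components is known to be higher in male than in female mice.

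The C8 chains join the complex before C9. C8a, which encodes the alpha chain, had 35.94, 23.05, 29.15, 22.12 and 26.58 FPKM in KO 1 to KO 5, against 27.56, 29.61, 30.42, 44.87 and 63.32 FPKM in WT 1 to WT 5. WT 4 and WT 5 stood above the rest, and the log2 difference of -0.46 did not pass (SE 0.23, limma adjusted p = 0.25). C8b, which encodes the beta chain and lies next to C8a on chromosome 4, was also highest in WT 5, at 67.05 FPKM against 34.99 to 50.23 FPKM in the other WT libraries and 35.19 to 48.82 FPKM in KO livers (log2 difference -0.19, limma adjusted p = 0.51). C8g, which encodes the gamma chain from another chromosome, was even, at 157.6 ± 8.43 FPKM in KO livers and 165.4 ± 8.44 FPKM in WT livers (log2 difference -0.07, limma adjusted p = 0.46).

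**Figure D3:**
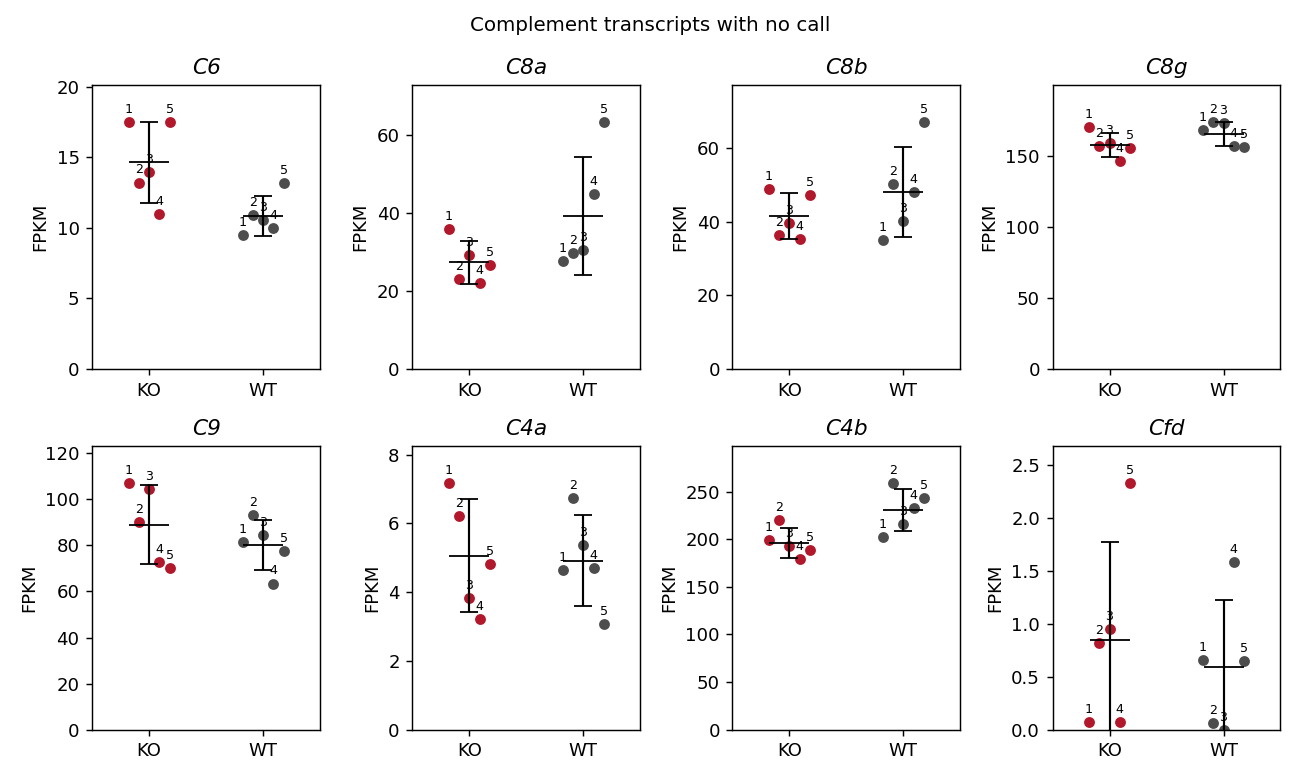
FPKM of terminal components and of C4a, C4b and Cfd, none of them called, with KO libraries (red) left of WT libraries (grey), numbered by replicate; bars give the mean ± SD of 5 libraries and axes start at 0. C6 is above the WT range in 4 KO libraries, C8a and C8b are highest in WT 5, and Cfd scatters between 0 and 2.33 FPKM.

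Soluble regulators limit the cascade in plasma. Cfi, which encodes factor I, the protease that inactivates C3b and C4b, had 221.43, 206.13, 218.15, 199.97 and 206.64 FPKM in KO 1 to KO 5, against 266.75, 283.08, 253.18, 283.78 and 304.81 FPKM in WT 1 to WT 5. The groups were fully apart, with a log2 difference of -0.40 with a standard error of 0.06 (limma adjusted p = 0.0027). Cfi (chr3:129835884-129875332 in mm10) lies 0.742 Mb from Etnppl, the only complement gene of the list within 10 Mb of it. For this gene, an effect of DNA that flanks the targeted allele cannot be told apart from an effect of the knockout. Of the transcripts for its substrates, C3 was called lower as well and C4b was not.

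The other soluble regulators did not pass the test. Vtn, which encodes vitronectin, an inhibitor of the terminal complex, had 1283.60, 1196.85, 1135.37, 1092.86 and 1129.45 FPKM in KO 1 to KO 5, against 1187.51, 1395.27, 1148.77, 1247.00 and 1434.45 FPKM in WT 1 to WT 5. The genotypes overlapped (log2 difference -0.13, limma adjusted p = 0.29). Clu, which encodes clusterin and also holds the terminal complex in check, had 793.04, 817.72, 824.52, 803.12 and 775.77 FPKM in KO 1 to KO 5, against 780.45, 761.80, 737.35, 777.60 and 781.31 FPKM in WT 1 to WT 5. Of the KO libraries, 4 were above every WT library, by a small margin (log2 difference 0.06, 95% interval -0.02 to 0.15, limma adjusted p = 0.37).

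Serping1, which encodes C1 inhibitor, the brake on C1r, C1s and the MASPs, averaged 489.5 ± 42.4 FPKM in KO livers and 524.9 ± 44.3 FPKM in WT livers (log2 difference -0.10, limma adjusted p = 0.45). C4bp, which encodes the C4b-binding cofactor of factor I, averaged 151.5 ± 3.97 FPKM in KO livers and 165.8 ± 11.4 FPKM in WT livers (-0.13, limma adjusted p = 0.16). Cfhr2, a factor H related gene, averaged 321.6 ± 20.2 FPKM in KO livers and 346.9 ± 24.8 FPKM in WT livers (-0.11, limma adjusted p = 0.31). The 95% intervals of all 5 soluble regulators other than Cfi lay between -0.29 and 0.15.

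Membrane regulators protect the cell that carries them, and none was called. Cd59a, which blocks the last step of pore formation, averaged 53.54 ± 3.76 FPKM in KO livers and 53.44 ± 3.22 FPKM in WT livers (log2 difference 0.0, 95% interval -0.13 to 0.14). Cr1l, which encodes Crry, a rodent regulator of C3 convertases, averaged 34.99 ± 1.48 FPKM in KO livers and 33.24 ± 2.91 FPKM in WT livers (0.08, 95% interval -0.07 to 0.22). Cd55, the decay-accelerating factor, averaged 9.88 ± 1.87 FPKM in KO livers and 8.824 ± 0.853 FPKM in WT livers (0.14, 95% interval -0.11 to 0.39), with KO 4 highest at 12.90 FPKM. Cd46, which in mice is known mainly from testis, stood at 0.20 to 0.43 FPKM in KO livers and 0.29 to 0.41 FPKM in WT livers and was not tested.

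The anaphylatoxin receptors were low in whole liver. C3ar1, the C3a receptor, ran from 0.58 to 1.21 FPKM in KO livers and from 0.88 to 1.12 FPKM in WT livers (log2 difference -0.13, limma adjusted p = 0.58). C5ar1, the C5a receptor, ran from 0.40 to 0.88 FPKM in KO livers and from 0.71 to 1.16 FPKM in WT livers (-0.27, limma adjusted p = 0.27). Both are known from myeloid cells, and with a pseudocount of 0.5 their differences are understated.

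Levels spanned a wide range. By mean over all libraries the order began with C3 (2016 FPKM), Vtn (1225 FPKM), Clu (785.3 FPKM), Cfb (509.8 FPKM) and Serping1 (507.2 FPKM), of which Cfb and Serping1 differed by less than their spread, and it ended with Cd46 (0.324 FPKM). Summed over all 34 genes, complement reached 7125, 6819, 6644, 6507 and 6506 FPKM in KO 1 to KO 5, against 7972, 8147, 6883, 8039 and 8326 FPKM in WT 1 to WT 5. WT 3 was the one WT library within the KO range, and it was the lowest WT library for 17 of the 33 tested transcripts. Among KO libraries, KO 1 was the highest for 16 and KO 4 the lowest for 14. Without WT 3, 6 transcripts were called lower, with Cfp lost (limma adjusted p = 0.0801).

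Of 24 further complement genes, 18 were tested, 3 fell, 2 rose and 13 were not called, with a median log2 difference of -0.18. C1qa, a chain of the C1q recognition molecule, fell by 0.46 on the log2 scale. The other C1q chains, C1qb (-0.28, limma adjusted p = 0.10) and C1qc (-0.26, limma adjusted p = 0.097), were not called. Vsig4, the macrophage receptor for C3b that is also counted above as a Kupffer cell marker, fell by 0.43. Cpn2, a subunit of the carboxypeptidase N that inactivates C3a and C5a, fell by 0.34. Susd4, known from human cells as a complement inhibitor, had 9.92, 9.40, 10.98, 11.75 and 11.64 FPKM in KO 1 to KO 5, against 2.70, 2.23, 5.38, 2.27 and 1.70 FPKM in WT 1 to WT 5. It rose by 1.83 on the log2 scale (limma adjusted p = 0.0012), with no overlap between genotypes. C1qbp, a mitochondrial protein first named for binding C1q, rose by 0.21.

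Decreases were also counted in other lists of proteins that the liver secretes, and no difference between lists was tested. Of 24 coagulation genes, 9 fell, none rose and 15 were not called (37.5% called, median log2 difference -0.17), with the smallest p for Klkb1 (-0.82), F7 (-0.36), Proc (-0.31) and Kng1 (-0.27). Of 20 tested acute-phase genes, 5 fell, 2 rose and 13 were not called (median -0.13): Saa4 (-1.09), Lrg1 (-0.78), Itih4 (-0.55), Saa3 (-1.13) and Lbp (-0.35) fell, while the pentraxins Apcs (0.75) and Crp (0.30) rose. Of 10 genes of IL6 and STAT3 signalling, the pathway known to induce acute-phase genes in hepatocytes, limma called 0 (4 had an unadjusted p under 0.05), 9 had a negative difference and the median was -0.18. Of 8 endothelial markers limma called 0 and 1 had an unadjusted p under 0.05 (median -0.03), and of 7 tested lymphocyte markers 0 were called and 3 had an unadjusted p under 0.05 (median -0.21).

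**Figure D4:**
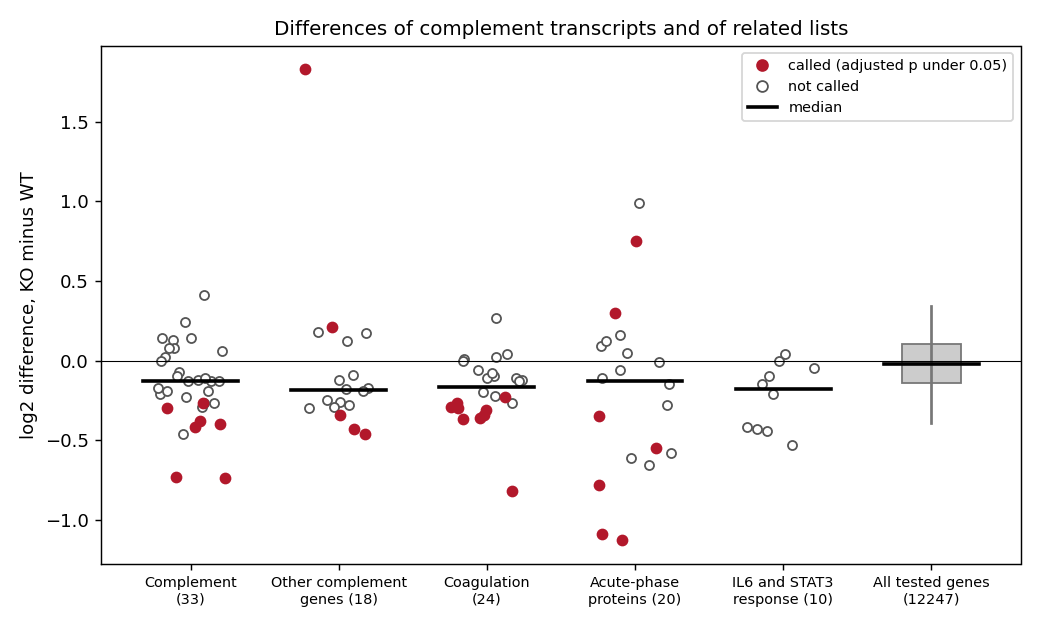
Log2 difference between KO and WT livers for each tested gene of the complement list and of related lists, with called genes in red and medians as black lines; for all 12247 tested genes the box spans the 25th to 75th and the line the 5th to 95th percentile. The list medians lie between -0.18 and -0.13, against -0.02 for all tested genes, and the red point at 1.83 is Susd4.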

How the data were processed

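Poly-A RNA of liver was sequenced paired-end, per the series' design text. The deposited table holds FPKM, which the authors scaled per library. The submitters' processing notes list mm10, STAR, RSEM, DESeq, DESeq2 and R 4.0.2 but not what each did. The annotation release is not given in the sources used here, nor is the strand setting, so overlapping and antisense genes may share reads. Library totals of reads were not analysed here. Groups and replicate numbers follow the labels.

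Genes averaging 0.5 FPKM or more were fitted as log2(FPKM + 0.5), a scale that understates changes of low genes. The fit was limma 3.58.1 (R 4.3.3; genotype as the one term, eBayes with trend, robust), two-sided, and a call needed an adjusted p under 0.05 (Benjamini-Hochberg, over every tested gene). The fit was also run on simulated data with independent noise per gene and changes larger than those of most called complement transcripts. That run does not test shifts shared by many genes of a library. Etnppl had an exact permutation test. Relative depth used 262 low genes, picked because their values lie near whole steps. Positions and transcript identities came from GENCODE M21 on GRCm38, the assembly of mm10. Plots used matplotlib 3.10.9 and Python 3.11.15.

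The members and lists were chosen with earlier results of these data known. All 34 members are named. From each other list, only called genes are named, at most 6 by smallest p. Adipoq, C1qb, C1qc, C1rb, C1s2, Gm20547 and Tardbp were named after their values were seen. Where a symbol had 2 rows, the row with the higher mean was used. The hepatocyte list had 9 of 10 symbols in the table. Another stellate cell marker, and the counts and sums of that list, are not reported here. Alternatives were other pseudocounts and filters, 3 scalings, a non-robust fit, a replicate block and each library left out.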

Additional observations from a re-analysis of the deposited data

Results flagged for a closer look

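In 68 groups of 5 libraries (34 complement genes in each genotype), 3 held a library far from the other 4, where chance gives about 1 in 20, or 3.4. C3 was at 1773.76 FPKM in WT 3, against 2361.62 to 2561.85 FPKM in the other WT libraries. Hc was at 102.23 FPKM in KO 3, against 94.41 to 96.33 FPKM in the other KO libraries. C4bp was at 158.4 FPKM in KO 4, against 149.09 to 151.22 FPKM in the other KO libraries.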

How the results depend on the processing

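The 19 alternatives gave 623 values for single complement transcripts beside those reported, of which 592 kept direction and call, 19 lost the call, 3 gained it and 9 changed sign. Hc, Mbl2, Cfi and C3 stayed called under all of them (limma adjusted p up to 0.0113, 0.02, 0.0238 and 0.0498). The 7 calls came to between 4 and 7 with a library left out, fewest without KO 2, and calls higher to between 0 and 1, where the 1 is C6 without KO 4. Sign changes were all of uncalled transcripts with a library left out: C4a ran from -0.115 to 0.156 and was negative without WT 5, KO 1 or KO 2. Cfd ran from -0.0985 to 0.518 and was negative without KO 5. Cd59a ran from -0.034 to 0.036 and was negative without WT 2, WT 4, WT 5, KO 3 or KO 5. Over all genes, 558 were called lower and 488 higher, and 370 and 294 with no filter on low values. With a library left out these ran from 316 to 541 lower and from 258 to 454 higher. Of all calls, 46.7% were higher with the values unscaled. That share was 53.6% with median-of-ratios scaling, 50.9% with upper-quartile scaling and 56.1% with quantile normalization. Deviations of same-numbered libraries correlated at -0.207 to 0.208, which gives little sign that the replicate numbers pair the samples. KO 1 and KO 5 correlated best with the WT library of the same number, so this check does not settle the pairing. With the replicate number as a block, 321 genes were lower and 230 higher, and 6 complement transcripts were lower, with Cfb lost (limma adjusted p = 0.0681). The cause of these shifts was not tested.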
